A study of Mus musculus with 2 samples.

Results

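The transcription factor p53 and 6 genes it is known to activate (Phlda3, Bbc3, Gadd45a, Cdkn1a, Mdm2 and Bax), together with the inflammatory caspases Casp1 and Casp4, were followed in kidneys of Glis2-mutant mice. They were chosen by gene name from the arrays' design, with earlier results of these data known. Casp4 carries its older name Casp11 there. The set makes up 9 of the 18357 genes tested. Two-colour Agilent 60-mer arrays were hybridised with whole-kidney RNA from mice labelled Glis2 KO and from wild-type mice labelled Glis2 WT. On replicate 1 the mutant RNA carried Cy3 and the wild-type RNA Cy5, and on replicate 2 the dyes were exchanged. According to the series text, each RNA was a pool of 3 kidneys, the study covered mice at postnatal days 25 and 60, and there were 2 independent experiments with duplicate arrays. The labels of the arrays used here give neither the age nor whether the 2 arrays come from separate experiments, so the spread between them may be technical. They also give no strain, sex or description of the Glis2 allele. Each comparison is therefore between 1 mutant and 1 wild-type RNA per array, with n = 2 arrays.

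p53 is a DNA-binding protein that is held at a low level by the ubiquitin ligase Mdm2 and accumulates after DNA damage and other stress. Its targets include Cdkn1a, which halts the cell cycle, Gadd45a, which takes part in the stress response, Bax and Bbc3, which act on mitochondria to start apoptosis, and Phlda3, which restrains the kinase Akt. p53 is regulated largely at the level of the protein, which these arrays do not measure. Caspase-1 and caspase-4 (also called caspase-11 in the mouse) belong to another branch of cell death: they are activated in inflammasomes or by bacterial lipopolysaccharide, and they cleave gasdermin D, which forms pores in the cell membrane. Macrophages are a well-known site of their expression.

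All 9 genes were measured by a single spot of a single probe, not saturated, and all 9 passed the filter on dim spots. The software flagged all 9 as well above background in all 4 channels. On replicate 2, however, the wild-type signal of Cdkn1a (139) was below the average of its 3 nearest negative controls (181). The software's flag placed 94.6% to 97.4% of spots well above background in each channel. Kidney identity was visible in Umod and Kap, transcripts of tubule cells, which saturated the scanner in all 4 channels. The Glis2 probe had a net signal (mean spot signal minus the median local background) of 344 in mutant and 229 in wild-type RNA on replicate 1, and of 141 in mutant and 169 in wild-type RNA on replicate 2. Its mean log2 ratio of mutant over wild type was 0.24 ± 0.11 (limma's moderated SE, n = 2) with an adjusted p of 0.328. Where this probe lies relative to the altered part of Glis2 is not known, so it does not check the labels.

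Among p53 and its targets, Phlda3 and Bbc3 were about double in mutant kidney, whereas p53 itself, Cdkn1a, Mdm2, Bax and Gadd45a did not pass the test. Both inflammatory caspases rose, Casp4 by 2.67-fold and Casp1 by 1.40-fold. In all, 4 of the 9 genes were higher and 0 were lower at a Benjamini-Hochberg adjusted p under 0.05 in limma, while over all genes tested 3.79% were higher and 1.21% were lower, or 5.01% in either direction. At an unadjusted p under 0.05 the count was 6 higher and 0 lower, against 10.1% higher and 6.31% lower over all genes tested. A rise of at least 1.5-fold on both arrays was seen for 3 of the 9, Casp4, Phlda3 and Bbc3, against 2.21% of all genes in that direction and 0.528% in the other. The log2 ratio was positive on both arrays for 8 of the 9, Bax being the exception, and for 31.9% of all genes tested. As the 9 were chosen with earlier results of these data known, these shares do not measure an excess.

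**Figure D1:**
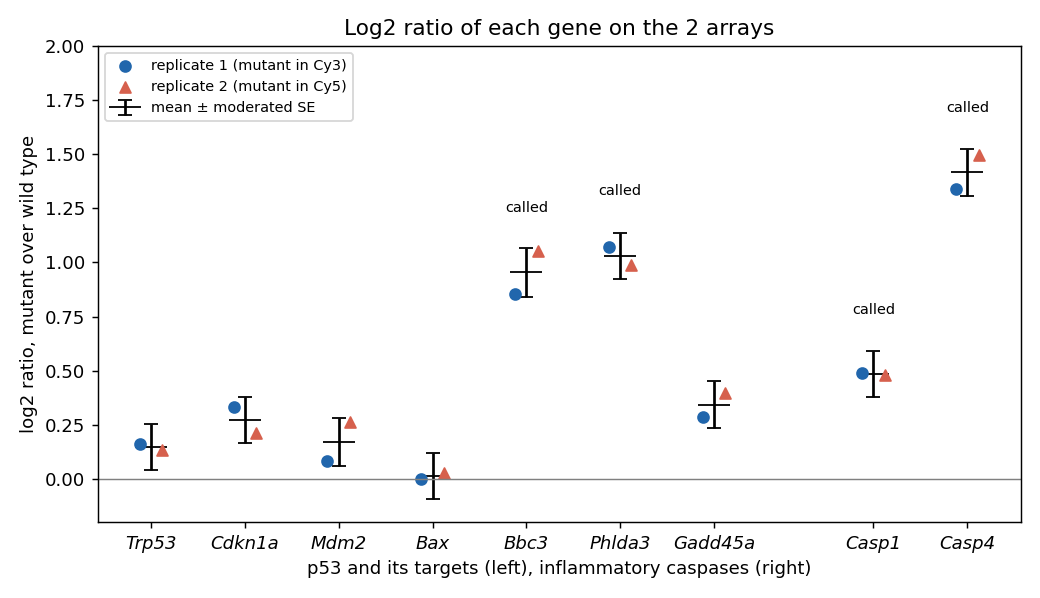
Log2 ratio of mutant over wild type after loess normalization (y axis) for each gene (x axis), with a point for each array, and the mean with limma's moderated SE. Casp4, Phlda3 and Bbc3 lie near or above 1 on the log2 scale, Casp1 near 0.5 and Bax at 0.

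Phlda3 encodes a small pleckstrin-homology protein that competes with Akt for membrane lipids. Its net signal was 942 in mutant and 382 in wild-type RNA on replicate 1, and 955 in mutant and 492 in wild-type RNA on replicate 2. Both mutant values stood above both wild-type values. The log2 ratios were 1.07 and 0.99 on replicates 1 and 2, a mean of 1.03 ± 0.11 or 2.04-fold, with an adjusted p of 0.00206. By absolute mean log2 ratio, Phlda3 ranked 177 among all genes tested.

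Bbc3, also known as Puma, is a BH3-only protein that neutralises the survival members of the BCL2 family. Its net signal was 348 (mutant) and 142 (wild type) on replicate 1, and 360 (mutant) and 184 (wild type) on replicate 2, again with no overlap of the genotypes. The log2 ratio was 0.86 on replicate 1 and 1.05 on replicate 2, a mean of 0.95 ± 0.11 or 1.94-fold (adjusted p = 0.00335). Each of Phlda3 and Bbc3 kept its call in 10 of 12 alternative ways of processing. Each lost it with the scanner's own log ratios and the deposited value table, under which no gene on the array was called. The alternatives overlap, so such counts are not independent votes. The log2 ratios of all 9 genes stayed unchanged with scaling between arrays, other filters on dim spots, averaging of probes or another limma prior. The scanner's log ratios and the value table hold the same ratios.

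Gadd45a, a small nuclear protein that binds Cdkn1a and PCNA, gave a net signal of 1068 in mutant and 795 in wild-type RNA on replicate 1. On replicate 2 it gave 1092 in mutant and 858 in wild-type RNA. The mutant values were the higher ones on both arrays and did not overlap the wild-type values. The log2 ratios of 0.29 and 0.40 gave a mean of 0.34 ± 0.11, which missed the threshold (adjusted p = 0.152, unadjusted p = 0.014).

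Cdkn1a encodes the cyclin-dependent kinase inhibitor p21. Its net signal was 127 in mutant and 61.1 in wild-type RNA on replicate 1, but 114 in mutant and 139 in wild-type RNA on replicate 2, so the genotypes overlapped. After normalization the log2 ratios were 0.33 and 0.21, with a mean of 0.27 ± 0.11 that did not pass the test (adjusted p = 0.264, unadjusted p = 0.0375). The value of Cdkn1a depended on the background: with the nearest negative control spots subtracted, an alternative chosen after seeing the data, its mean log2 ratio was 0.58, still without a call.

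Mdm2, the ligase that marks p53 for degradation and is itself a p53 target, had a net signal of 126 (mutant) and 81.9 (wild type) on replicate 1, and of 93.1 (mutant) and 113 (wild type) on replicate 2. Its log2 ratios were 0.08 and 0.26 (mean 0.17 ± 0.11, adjusted p = 0.498). Over the 12 alternatives the mean ran between 0.03 and 0.24. Trp53 itself gave 301 (mutant) and 225 (wild type) on replicate 1, and 176 (mutant) and 202 (wild type) on replicate 2. Its log2 ratios of 0.16 and 0.13 averaged 0.15 ± 0.11 (adjusted p = 0.554), and the mean stayed between 0.07 and 0.19 over the alternatives. The net signals of both genes overlapped between genotypes.

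Bax, which perforates the outer mitochondrial membrane, had a net signal of 1428 in mutant and 1327 in wild-type RNA on replicate 1 and of 986 in mutant and 1010 in wild-type RNA on replicate 2. Its log2 ratios were -0.00101 and 0.03, and the mean was 0.01 ± 0.11 (adjusted p = 0.971). The signs differed between arrays, and with median centring in place of loess the mean also changed sign, to -0.00323. A p above the threshold does not show that any of these 5 transcripts was at the same level in both genotypes.

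Over p53 and its targets the median of the mean log2 ratios was 0.27, with medians of 0.29 on replicate 1 and 0.26 on replicate 2, beside 0.01 over all genes tested. The net signals of the genotypes did not overlap for 5 of the 9 genes, with mutant higher in each, against 13% of all genes tested with mutant higher and 6.4% with mutant lower. The raw signals carry a dye bias, as the median spot was brighter in Cy3: 209 in mutant and 164 in wild-type RNA on replicate 1, and 168 in mutant and 217 in wild-type RNA on replicate 2. The wild-type values of Trp53, Cdkn1a, Mdm2 and Bax that lay above the mutant value of the same array were all from the Cy3 channel of replicate 2.

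**Figure D2:**
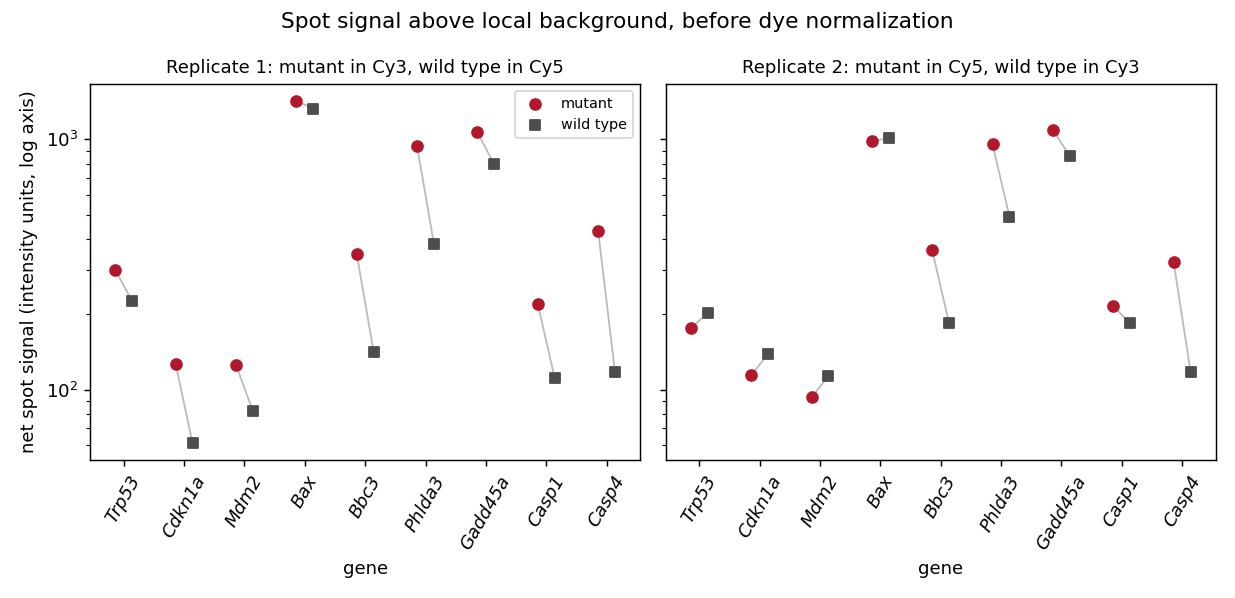
Net spot signal in intensity units on a log axis (y axis) for the 9 genes (x axis), mutant and wild type, with a panel for each array and its dyes. Mutant signals of Phlda3, Bbc3, Casp1, Casp4 and Gadd45a lie above wild type on both arrays, and those of Trp53, Cdkn1a and Mdm2 lie above on replicate 1 and below on replicate 2, before any dye normalization.

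Casp4 showed the largest ratio of the 9 genes. Its protein senses cytosolic lipopolysaccharide and cleaves gasdermin D. The net signal was 432 in mutant and 117 in wild-type RNA on replicate 1, and 324 in mutant and 118 in wild-type RNA on replicate 2, without overlap. The log2 ratios were 1.34 and 1.49, a mean of 1.42 ± 0.11 or 2.67-fold (adjusted p = 0.000695), at rank 57 of all genes tested by absolute mean log2 ratio. It was the single one of the 9 genes that also passed a 2-fold rule on both arrays. Over the 12 alternatives its mean log2 ratio ran between 1.16 and 1.89, and the call was kept in 10 of them, those without it being the scanner's log ratios and the deposited value table.

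Casp1 encodes the protease that matures interleukin-1β and interleukin-18. Its net signal was 220 (mutant) and 111 (wild type) on replicate 1 and 216 (mutant) and 184 (wild type) on replicate 2. The mutant values were the higher on both arrays, by a smaller margin on replicate 2. After normalization the log2 ratios were 0.49 and 0.48, a mean of 0.48 ± 0.11 or 1.40-fold, with an adjusted p of 0.0448, just under the threshold. The call was lost in 8 of the 12 alternatives, in which direction was kept throughout and adjusted p ranged between 0.00977 and 0.797. The 4 that kept the call left the log2 ratios of Casp1 unchanged. With the nearest negative controls subtracted, the mean was 0.74 and the adjusted p 0.0868.

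Casp1, Casp4 and Casp12 follow each other without another protein-coding gene between them in the RefSeq order of chromosome 9. Casp12 had log2 ratios of 0.27 and 0.21, with a mean of 0.24 ± 0.11 (adjusted p = 0.322), and was not called. Gria4, a glutamate receptor gene next to Casp1 on the other side, had a mean log2 ratio of -0.01 (adjusted p = 0.981).

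The promoters of the genes with the largest rise in each branch, Phlda3 and Casp4, are shown with those of Casp1, the neighbour of Casp4, and of Cdkn1a, in which the search found a full p53 motif. Each window runs from 250 bases before to 50 bases after a RefSeq transcription start on the assembly GRCm38.p6, on the plus strand, and capitals mark motif matches. Phlda3 lies at chr1:135765835-135766134, Cdkn1a (the more upstream of its starts) at chr17:29090729-29091028, Casp1 at chr9:5298267-5298566 and Casp4 at chr9:5308599-5308898.
Phlda3: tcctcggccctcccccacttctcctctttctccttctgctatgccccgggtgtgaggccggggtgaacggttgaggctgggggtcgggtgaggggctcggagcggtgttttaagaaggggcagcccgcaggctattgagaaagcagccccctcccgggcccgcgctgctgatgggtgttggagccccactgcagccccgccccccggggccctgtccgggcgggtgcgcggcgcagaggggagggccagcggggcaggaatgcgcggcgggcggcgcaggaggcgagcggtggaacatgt
Cdkn1a: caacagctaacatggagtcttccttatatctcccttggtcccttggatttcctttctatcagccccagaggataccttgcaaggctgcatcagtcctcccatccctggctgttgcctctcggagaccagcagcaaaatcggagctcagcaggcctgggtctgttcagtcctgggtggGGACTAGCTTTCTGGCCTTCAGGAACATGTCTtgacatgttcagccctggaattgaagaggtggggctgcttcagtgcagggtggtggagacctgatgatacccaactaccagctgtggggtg
Casp1: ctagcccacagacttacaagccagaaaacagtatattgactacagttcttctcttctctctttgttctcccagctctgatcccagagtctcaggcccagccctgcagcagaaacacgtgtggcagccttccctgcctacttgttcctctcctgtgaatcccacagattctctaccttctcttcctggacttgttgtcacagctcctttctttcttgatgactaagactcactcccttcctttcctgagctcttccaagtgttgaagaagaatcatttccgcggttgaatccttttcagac
Casp4: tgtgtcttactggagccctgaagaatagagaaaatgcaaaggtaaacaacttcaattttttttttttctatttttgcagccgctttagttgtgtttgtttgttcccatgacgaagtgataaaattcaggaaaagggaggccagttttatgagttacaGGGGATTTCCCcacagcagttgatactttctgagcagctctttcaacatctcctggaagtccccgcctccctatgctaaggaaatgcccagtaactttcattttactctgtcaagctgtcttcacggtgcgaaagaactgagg
Both strands of all 13 windows of the 9 genes were searched for 5 motifs. The p53 half-site was found in 5 of the 9 genes (Trp53, Cdkn1a, Mdm2, Bax and Gadd45a) and in 8.36% of 32851 promoter windows of the genome. A gene with several windows had more chances of a match than a single window. The Phlda3 window ends in gaacatgt, which fits the start of a half-site cut off by the window's edge. Its lack of a match is therefore not evidence that Phlda3 has no half-site. A full p53 site was a pair of half-sites with a spacer of 0 to 13 bases, with no mismatch allowed. It was found only in the Cdkn1a window shown and in 0.0731% of all windows. The match runs from -73 to -42 with the first transcribed base counted as 0. Directly after the half-site that ends at -42, the bases tgacatgttc miss the half-site pattern only at their first letter. They stay in lower case, so the marked pair is not the only possible reading of a p53 site there. The NF-kB site was found in 3 genes (Casp4, Bbc3 and Trp53), against 4.51% of windows; in Casp4 a pair of overlapping matches spans -93 to -83. The interferon-stimulated response element core, GAAA, any 2 bases and GAAA (3.44% of windows), and the gamma-activated site TTCNNNGAA (8.3% of windows) had 0 matches in the 9 genes. Half-sites counted within a full site are the same letters. These are matches of letters in a short window, and no binding was measured.

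The precision of the ratios differed between the arrays. The arrays' log2 ratios correlated at r = 0.587 across the 18357 genes, which are not independent replicates. For 34 probes of mean log2 intensity under 9 that were printed at 9 to 10 places, the median SD of the log2 ratio between spots of the probe was 0.198 on replicate 2 and 0.0406 on replicate 1. For 16 brighter probes it was 0.0396 on replicate 2 and 0.037 on replicate 1. As each of the 9 genes had 1 spot, its own spread within an array could not be measured.

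**Figure D3:**
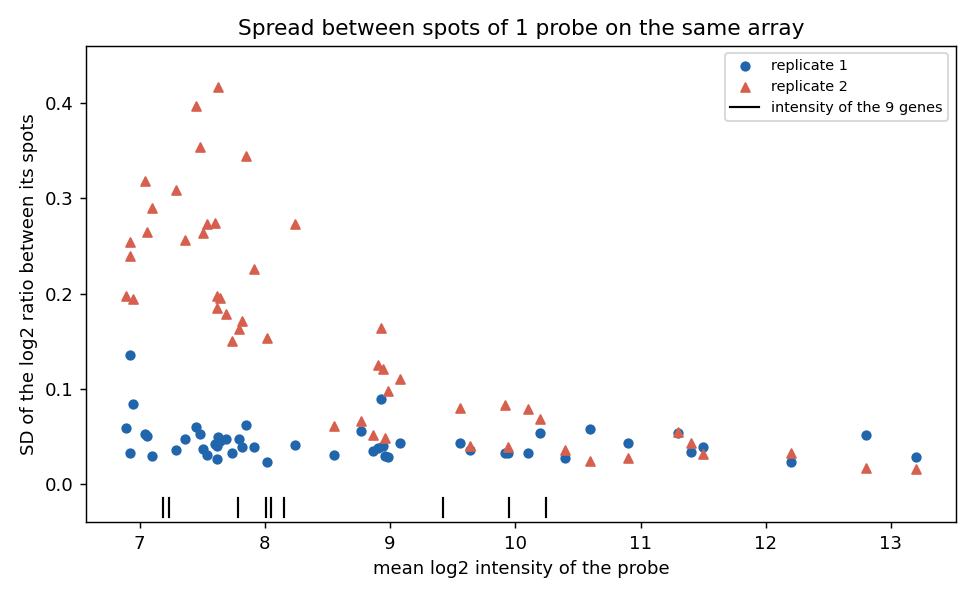
SD of the log2 ratio between spots of the same probe on the same array (y axis) against the mean log2 intensity of the probe (x axis), for 50 probes with 9 to 10 spots and for both arrays. Dim probes reach an SD of 0.417 on replicate 2 and of 0.136 on replicate 1.

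Negative control spots on replicate 2 had a median net signal of 10.9 in the mutant (Cy5) channel, with a highest value of 85.1, and of 41.2 in the wild-type (Cy3) channel, with a highest value of 240. On replicate 1 the medians were 12.3 in the mutant and 3.33 in the wild-type channel. The 3 nearest controls on replicate 2 averaged 54.8 (mutant) and 162 (wild type) around Casp1, and 64 (mutant) and 181 (wild type) around Cdkn1a. These wild-type values are close to or above the wild-type signals of the genes themselves, 184 and 139. Around Casp4 they averaged 3.92 (mutant) and 18 (wild type), and around Gadd45a 3.38 (mutant) and 17.2 (wild type), well below the genes' signals. The wild-type average was 39.8 around Trp53 and 19 around Mdm2. For Phlda3, Bbc3 and Bax the wild-type control averages were 154, 123 and 147, under their own signals of 492, 184 and 1010. The margin was smallest for Bbc3. With the nearest controls subtracted, Casp4, Phlda3 and Bbc3 were still called, and Casp1 and Cdkn1a had the values given above.

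**Figure D4:**
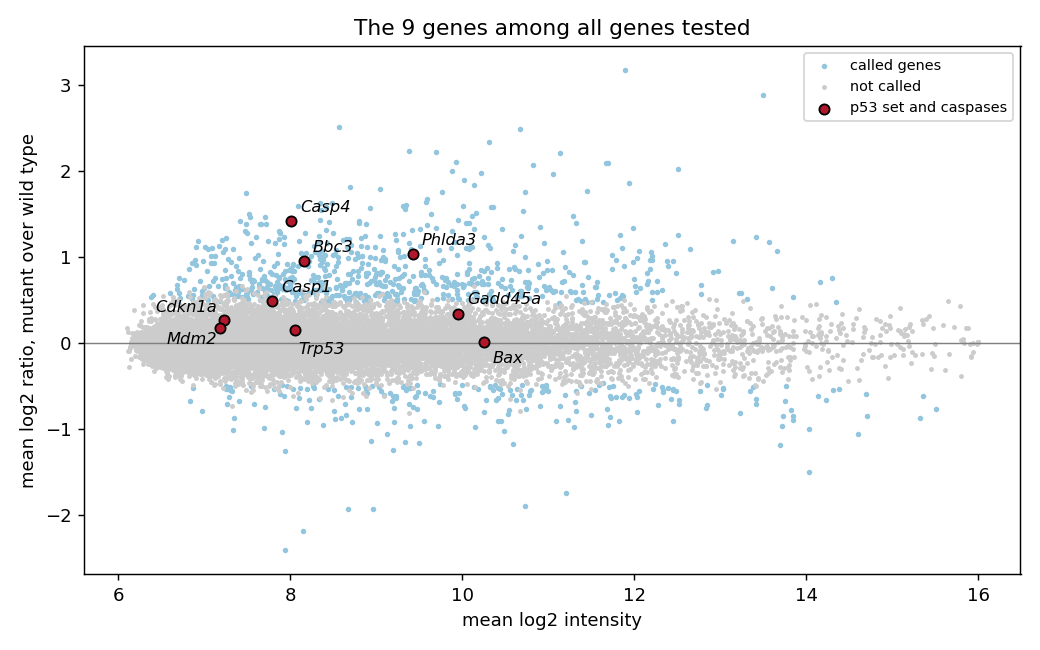
Mean log2 ratio of mutant over wild type (y axis) against mean log2 intensity (x axis) for all 18357 genes tested, with the 9 genes named. Casp4, Phlda3 and Bbc3 stand above most of the cloud, and Bax, Trp53, Mdm2 and Cdkn1a within it.

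The other genes of these pathways were described in lists. Of 38 other p53 targets tested, 2 were higher (5.26%, near the 3.79% over all genes) and 0 lower, with a median log2 ratio of 0.06, beside 0.01 over all genes. At an unadjusted p under 0.05, 9 were higher and 1 lower, against 10.1% and 6.31% of all genes. Trp53inp1, which promotes p53-dependent death and autophagy, had a net signal of 875 (mutant) and 502 (wild type) on replicate 1 and 808 (mutant) and 531 (wild type) on replicate 2. Its mean log2 ratio was 0.64 ± 0.11 (adjusted p = 0.0148). The stress cytokine Gdf15 rose by 0.59 ± 0.12 on the log2 scale (adjusted p = 0.0286). These calls were kept in 6 and 5 of the 12 alternatives. Of 18 members and regulators of the p53 family, 0 were called in limma, with 0 higher and 2 lower at an unadjusted p under 0.05. Among them the kinase Hipk2 had a mean log2 ratio of -0.35 (adjusted p = 0.138), and its other probe gave -0.23 and 0.10 on replicates 1 and 2.

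Of 23 tested genes of inflammasomes and pyroptosis, 4 were higher (17.4%) and 0 lower, against 3.79% and 1.21% of all genes. At an unadjusted p under 0.05 in limma, 6 were higher and 2 lower, against 10.1% and 6.31% of all genes. The median log2 ratio was 0.08. Pycard, the adaptor that links inflammasome sensors to caspase-1, had a net signal of 1156 (mutant) and 508 (wild type) on replicate 1 and 1117 (mutant) and 629 (wild type) on replicate 2, and rose by 0.93 ± 0.11 on the log2 scale (adjusted p = 0.00335). The channel gene Panx1 rose by 0.74 ± 0.11 (adjusted p = 0.00787) and Txnip, which binds thioredoxin, by 0.61 ± 0.11 (adjusted p = 0.018), on the same scale. Pycard kept its call in 9, Panx1 in 7 and Txnip in 6 of the 12 alternatives. Gsdmd, which encodes gasdermin D, had a mean log2 ratio of 0.47 ± 0.11 (adjusted p = 0.049) and kept its call in 4 of 12 alternatives. It was printed in 10 spots, whose log2 ratios ran between 0.38 and 0.55 on replicate 1 but between -0.28 and 0.80 on replicate 2. The sensor gene Nlrp3, 1 of the 2 that were lower at an unadjusted p under 0.05, had the lowest mean of the list, -0.47. It was not called.

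None of 7 further caspases tested, the apoptotic ones and Casp14, was called in limma. At an unadjusted p under 0.05, 1 was higher and 0 lower, against 10.1% and 6.31% of all genes. Their median log2 ratio was 0.14. Casp2 had a mean log2 ratio of 0.30 (adjusted p = 0.232) and Casp14 -0.19 (adjusted p = 0.45). In the BCL2 family 2 of 18 genes were higher (11.1%) and 0 lower, against 3.79% and 1.21% of all genes. Bok, a Bax-like member, had a net signal of 3138 (mutant) and 1051 (wild type) on replicate 1 and of 2933 (mutant) and 1258 (wild type) on replicate 2. Bok rose by 1.34 ± 0.11 on the log2 scale (adjusted p = 0.000985). Bcl2a1b, a survival member of white blood cells, rose by 1.40 ± 0.13 on that scale (adjusted p = 0.00161), but near-identical copies of the gene could share its probe. Bak1, the partner of Bax in mitochondrial permeabilisation, had a mean log2 ratio of 0.48 (adjusted p = 0.0566).

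Of 20 death receptors and adaptors, 2 were higher (10%) and 0 lower, against 3.79% and 1.21% of all genes. They were the necroptosis genes Mlkl, with a mean log2 ratio of 0.56 ± 0.11 (adjusted p = 0.0286), and Ripk3, with 0.52 ± 0.12 (adjusted p = 0.0463). Both spots were dim: Mlkl had a net signal of 142 (mutant) and 59.6 (wild type) on replicate 1 and 65.3 (mutant) and 48.2 (wild type) on replicate 2. Mlkl kept its call in 5 and Ripk3 in 4 of the 12 alternatives. Tnfrsf21, which encodes death receptor 6, had a mean log2 ratio of -0.48 (adjusted p = 0.0542) and was not called, and its other probe gave -0.01 and 0.07 on replicates 1 and 2. Among 20 inhibitors of apoptosis and genes of the apoptosome, 2 were higher (10%) and 0 lower, against the same shares of all genes. Birc3, a ubiquitin ligase of the inhibitor family, rose by 0.83 ± 0.14 (adjusted p = 0.0169), and Septin4, whose ARTS isoform antagonises inhibitors of apoptosis, by 0.65 ± 0.11 (adjusted p = 0.0144), on the log2 scale. Birc3 kept its call in 7 and Septin4 in 6 of the 12 alternatives.

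Of 8 genes of the Gadd45 family and the CDK inhibitors tested, 1 was higher and 1 lower, against 3.79% and 1.21% of all genes. Gadd45b rose by 0.72 ± 0.11 (adjusted p = 0.00876) and Gadd45g fell by 0.75 ± 0.11 (adjusted p = 0.00846), on the log2 scale. Gadd45b kept its call in 7 and Gadd45g in 6 of the 12 alternatives. Gadd45g had a net signal of 5120 in mutant and 8836 in wild-type RNA on replicate 1, and of 6095 in mutant and 9937 in wild-type RNA on replicate 2, so mutant was below wild type on both. Cdkn1c, which encodes the inhibitor p57, had a mean log2 ratio of 0.50 (adjusted p = 0.0539).

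**Figure D5:**
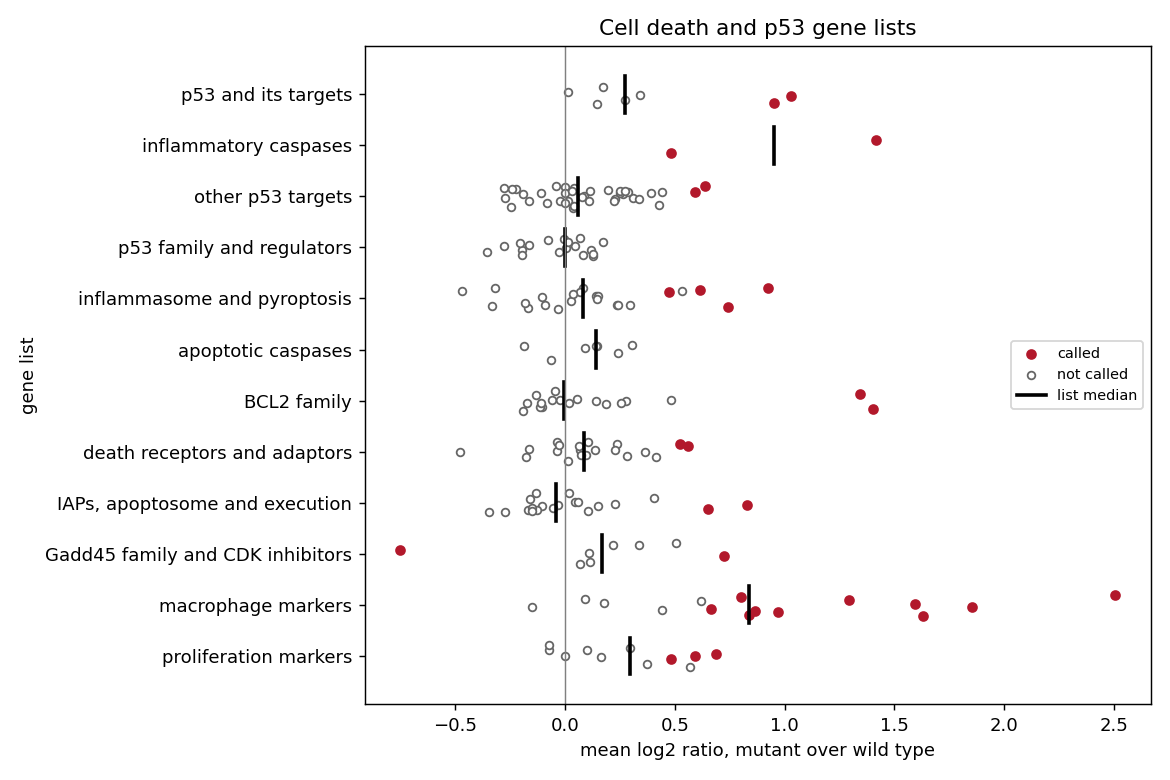
Mean log2 ratio of mutant over wild type (x axis) for each tested gene of the lists (rows), with filled points for called genes, open points for genes not called, and a bar at each list's median. The median lies near 0 for the p53 family and the BCL2 family and at 0.84 for macrophage markers.

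Markers of macrophages and adipocytes were mostly higher in mutant kidney, while those of neutrophils, T and NK cells and kidney epithelium were mostly not called. In whole kidney, more cells of a type and more RNA per cell cannot be told apart. Of 15 macrophage markers 10 were higher (66.7%) and 0 lower, against 3.79% and 1.21% of all genes, with a median log2 ratio of 0.84. Their summed net signal was 16040 in mutant and 5755 in wild-type RNA on replicate 1, and 16540 in mutant and 6618 in wild-type RNA on replicate 2. Among the largest rises, the complement gene C1qa rose by 1.86 and the signalling adaptor gene Tyrobp by 1.63 on the log2 scale. C1qa alone made up a large part of the summed signal. It gave 7092 in mutant and 1961 in wild-type RNA on replicate 1, and 7852 and 2067 on replicate 2. The markers not called were Csf1r (mean log2 ratio 0.09), Cd68 (0.18), Itgam (-0.15), Ptprc (0.44) and Fcgr1 (0.62). In both genotypes the software flagged all 15 as well above background on both arrays, and none was at 0. The part of macrophages in the rises of Casp1, Casp4, Pycard, Bcl2a1b and the p53 targets was not tested.

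Of 10 T and NK cell markers 1 was higher (10%) and 0 lower, against 3.79% and 1.21% of all genes. At an unadjusted p under 0.05 in limma, 5 were higher and 0 lower, against 10.1% and 6.31% of all genes. Their median log2 ratio was 0.28. Their summed net signal, before dye normalization, was 3021 in mutant and 2340 in wild-type RNA on replicate 1. On replicate 2 it was 2734 in mutant and 2812 in wild-type RNA. Of 4 neutrophil markers that could be tested, 0 were called in limma and 0 had an unadjusted p under 0.05, while S100a8, Ly6g, Camp, Ngp, Cxcr2 and Retnlg were not among the genes tested. The summed net signal of the 4 tested markers was 537 in mutant and 373 in wild-type RNA on replicate 1, and 264 in mutant and 363 in wild-type RNA on replicate 2. Of 9 adipocyte markers 7 were higher, with a summed net signal of 36070 in mutant and 10280 in wild-type RNA on replicate 1 and of 35970 in mutant and 11460 in wild-type RNA on replicate 2. Proliferation markers were higher for 3 of 11 and lower for 0, with a summed net signal of 4708 in mutant and 2828 in wild-type RNA on replicate 1 and of 4380 in mutant and 3626 in wild-type RNA on replicate 2. The calls of Ccnb2 and Pcna were each kept in 5 and that of Mki67 in 4 of the 12 alternatives. Of 14 tested kidney epithelial markers 0 were higher and 1 was lower. The median log2 ratio was -0.14 over the 12 of them that were not saturated in all 4 channels, as Umod and Kap were. The part of these cell types in the ratios of the 9 genes was not tested.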

How the data were processed

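Labelled cRNA (750 ng per dye) was made by amplification from 500 ng of RNA and hybridised for 17 hours, per the labels. The reading software was Agilent Feature Extraction 8.1.1.1. The deposited intensity columns, per the file headers, hold mean and background intensities per spot and channel before normalization, log10 ratios of Cy5 over Cy3 after the software's background and dye correction, and p-values of those ratios. The deposited value table equalled that log10 ratio with its sign turned on 22393 features of both arrays (column medians 0).

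In limma 3.58.1 (R 4.3.3), intensities were background-corrected with normexp (offset 50) and loess-normalized within arrays, and replicate 1 was turned to mutant over wild type. The offset makes log2 ratios understate changes of dim spots. Control spots and 88 spots with outlier flags were left out. Spots well above background in one genotype on both arrays were kept (20024). Replicate spots were averaged per probe, and each gene was read from its brightest probe. lmFit and eBayes tested 18357 genes (1 residual and 6.58 prior degrees of freedom), with Benjamini-Hochberg adjustment and a threshold of 0.05. Each SE is moderated by eBayes. Loess, averaging and the limma fit were run on simulated data with an equal spread on both arrays. Background correction and the uneven background of replicate 2 were not simulated. Slide, dye orientation and scan cannot be told apart. The number of arrays, 2, limits the precision.

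Probes were named through the RefSeq table of GRCm38.p6 by accession (14302 spots), current symbol (2439) or older symbol (2300), and 2277 kept the file's name. The array files name no build, so probe positions are not given. Promoters are from RefSeq, and all 9 genes matched. Members and lists were chosen with earlier results of these data known. Named genes are the 9 members, Glis2 and, per list, up to 4 called genes of largest absolute mean. Where fewer were called, the list's genes of largest absolute mean were taken, up to 3. Nlrp3, Gria4, Casp12 and the uncalled macrophage markers were named after their values were seen. A gene that the rule takes is not reported here.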

Additional observations from a re-analysis of the deposited data

How the results depend on the processing

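Of the 9 genes, 4 were called higher under the settings reported, 3 to 5 under each of 10 alternatives, and 0 with the scanner's log ratio. The deposited value table, which holds the same ratios with the sign turned, also gave 0. With each of these limma called 0 genes higher and 0 lower over the array, although 2521 had an unadjusted p under 0.05 (3018 as reported). None of the 9 was called lower under any of the 12 alternatives, nor was any lower by the size rule. Of the signs of the 9 genes, the alternatives changed that of Bax alone (mean log2 ratio -0.00323 with median centring). Casp1 was called in 4, and Phlda3, Bbc3 and Casp4 in 10 of the 12. Several of the 12 left the log2 ratios of the 9 genes unchanged, as stated above, so these counts are not independent votes. Gadd45a was called with the trended robust prior (adjusted p = 0.000667). Over all genes, 696 higher and 223 lower calls became 302 and 56 with a normexp offset of 16, 204 and 24 with plain background subtraction, 235 and 48 with median centring, 306 and 52 without normalization, 1540 and 932 with the trended robust prior, and 411 and 96 with the nearest negative controls subtracted, chosen after seeing the data. The higher share of calls, 75.7%, became 89.5% with plain subtraction and 62.3% with the trended robust prior. The 1.5-fold size rule gave 405 higher and 97 lower genes, the scanner's log ratio and the value table each 633 and 216, and a 2-fold rule 134 and 13, with 1 of the 9 genes (Casp4) in place of 3. Leaving out either array gave 551 to 691 higher and 186 to 418 lower genes past 1.5-fold on the array left. The causes of these shifts were not tested. The fit reported already pairs mutant with wild-type RNA within each array, so no further replicate block could be fitted. With 1 spot per gene, 2 arrays and an uneven background on replicate 2, changes near the ratio of Casp1 or below are at the limit of what could be measured.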
